A study of Mus musculus with 12 samples.

Results

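Transcript levels of a single inducible clone of mouse NIH 3T3 fibroblasts were compared with those of the parental 3T3 line in the absence of the inducing ligand. The clone, named 3T3-ind-IER2 #11 in the methods and labelled NIH 3T3-RheoSwitch-Ier2 with the cell type Klon11, carries the plasmids pNEBR-R1 and pNEBR-Ier2-hygro and is referred to here as inducible 3T3 cells. The cells labelled NIH 3T3 are referred to as parental 3T3 cells. Both lines were harvested 24 h after addition of DMSO, the vehicle, and 3 arrays of each line were hybridised. Each difference thus rests on 6 of the 12 arrays of the series. The remaining 6 arrays hold the same lines after 24 h of 200 nM RheoSwitch ligand RSL-1 (RSL). They served here to ask whether a difference between the lines recurred in arrays whose levels do not enter the DMSO differences. The spread between arrays was estimated from all 12 arrays together. The arrays were chosen by their labels alone, and all 16475 probe sets that are not manufacturer controls were tested. Because the inducible line is 1 clone, effects of the construct, of clonal selection and of time in separate culture cannot be told apart. A single growth protocol in the labels names G418 and hygromycin for every sample, parental cells included, and whether parental cells received either drug is not known here. The labels call the arrays biological replicates without saying that they came from separate cultures, in which case the p-values measure only the spread between arrays.

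In the RheoSwitch system a pair of engineered nuclear receptor proteins, RheoReceptor-1 and RheoActivator, is made from pNEBR-R1, and the ligand turns this complex into an activator of the promoter placed before the cloned gene. IER2 is an immediate-early protein, 1 of the family of factors whose genes are transcribed within minutes of serum or growth factor addition without new protein synthesis. NIH 3T3 cells are an immortal, aneuploid fibroblast line that secretes collagens and other matrix proteins, and a culture grown from 1 cell of such a line inherits the chromosome content and the expression state of that cell.

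The deposited values were log2 expression levels, and all differences are given as inducible minus parental on this scale, where 1 corresponds to 2-fold. Array medians lay between 7.03 and 7.06 and the values of all arrays between 5.19 and 14.3. The first quartile of the arrays lay at 6.23 to 6.30, and a gene under the quartile on all 3 DMSO arrays of a line is called near the floor in that line. Arrays of 1 group correlated with each other at r = 0.9981 to 0.9992 across probe sets, against 0.9913 to 0.9932 between arrays of different lines. Both lines had the markers of fibroblasts. The mean of 13 fibroblast genes was 9.91 to 9.97 over the inducible DMSO arrays and 9.84 to 9.88 over the parental ones, with 1 of the 13, the proteoglycan gene Lum, near the floor in both. Of these 13 genes, 6 (46.2%) were higher in inducible cells, 3 (23.1%) were lower and 4 did not pass. Marker lists of 9 other cell types had means between 6.11 and 6.98 in both lines, and the macrophage list of 12 genes was at 6.61 to 6.63 in inducible and 6.59 to 6.64 in parental cells. Single markers of other types differed in either direction, where 15.2% of all probe sets were higher and 14.5% lower. Of the 12 macrophage genes Cd68 (0.40) was higher and Csf1r (-0.20) and Cd14 (-0.16) lower. Of 10 endothelial genes, 5 of them near the floor in both lines, Tie1 (0.73) was higher and Vwf (-0.09) lower. The Vwf call was lost with a replicate block, with the 6 DMSO arrays alone and without any single array but parental replicate 3. Of 10 epithelial genes 3 were higher and 0 lower, with 6 of the 10 near the floor in both lines. Of 10 neural genes 1, the tubulin gene Tubb3 (-0.47), was lower. In RNA from whole cultures, fewer cells of a type and less RNA per cell cannot be told apart.

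The lines differed at 4885 probe sets at an adjusted p under 0.05 in limma with Benjamini-Hochberg adjustment, which is 29.7% of those tested. Of these, 2502 (15.2%) were higher and 2383 (14.5%) lower in inducible cells. Most of these differences were small. Their median size was 0.19, and 4633 of them (94.8%) were under 0.5. A difference of at least 2-fold was found for 38 higher probe sets (0.231%), 36 of which carry a gene symbol, and for 14 lower ones (0.085%). The median standard error of a difference was 0.04. Among the 3535 probe sets near the floor in both lines, 119 passed.

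After 24 h of RSL the lines differed at 5638 probe sets (34.2%), of which 2878 (17.5%) were higher and 2760 (16.8%) lower in inducible cells. The same direction was called under both conditions for 2031 higher probe sets, 81.2% of those higher under DMSO and 70.6% of those higher under RSL. It was called for 1829 lower probe sets, 76.8% and 66.3% of the respective lists, while 16 were called in opposite directions. These RSL arrays share no array with the DMSO comparison, but they hold the same clone. Of the 52 probe sets with at least a 2-fold difference under DMSO, 51 were called in the same direction under RSL and 41 of these again reached 2-fold. The exception was Egr1, a zinc finger transcription factor of the immediate-early response.

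**Figure D1:**
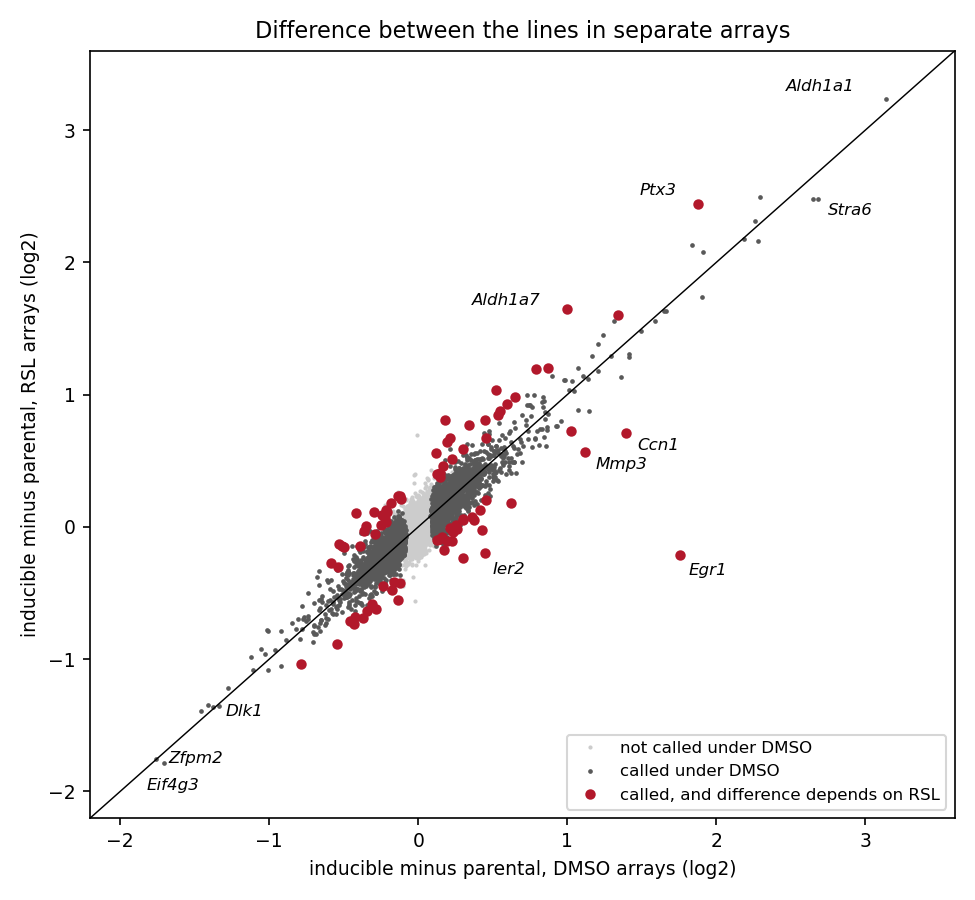
Difference between inducible and parental 3T3 cells under RSL (vertical axis, log2) against that under DMSO (horizontal axis, log2) for each probe set tested, with the line of equal values. Dark points were called under DMSO, and red points are those called whose difference also depended on the ligand. Most of the 52 probe sets with a 2-fold difference under DMSO have a like value under RSL, and Egr1 departs from this with 1.76 under DMSO and -0.21 under RSL.

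Ier2, the gene cloned into the inducible plasmid, was higher in inducible cells without ligand. Its levels were 9.07, 9.04 and 8.96 on the inducible arrays and 8.60, 8.61 and 8.53 on the parental arrays. All 3 inducible arrays lay above all 3 parental arrays, and the difference was 0.45 ± 0.05 (SE, n = 3 per line; limma adjusted p = 3.24e-06). Under RSL the difference was -0.20 (limma adjusted p = 0.00533), and the change of the line difference, -0.64, passed as well (limma adjusted p = 0.000262). It is not known here whether this Ier2 probe set detects endogenous transcripts, those made from the plasmid, or both, so that these values do not check the labels. With 3 arrays against 3, a two-sided exact permutation test cannot give a p under 0.1, and 0.1 was its value for Ier2 and for each of the 15 largest differences in either direction.

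The genes most raised in the clone include single genes of the retinoid pathway, matricellular and other secreted proteins, and several genes that the parental line had near the floor. Aldh1a1, a retinaldehyde dehydrogenase that forms retinoic acid, differed most. It read 9.50, 9.56 and 9.44 in inducible and 6.26, 6.47 and 6.35 in parental cells, a difference of 3.14 ± 0.05 (SE, n = 3 per line; limma adjusted p = 2.89e-17) or 8.79-fold. The parental levels of Aldh1a1 lay close to the first quartile of the arrays, so that this difference depends on background as well as transcript. Aldh1a7, a close paralog of Aldh1a1 and its neighbour on chromosome 19, read 8.53, 8.61 and 8.55 against 7.47, 7.67 and 7.55, a difference of 1.0. Whether the probes of these paralogs also read each other's transcript was not tested. Stra6, the membrane receptor through which retinol enters cells from its plasma carrier, read 9.83, 9.83 and 9.88 against 7.13, 7.21 and 7.15, a difference of 2.68 ± 0.04 (SE, n = 3 per line; limma adjusted p = 2.88e-17). None of these 3 genes had overlapping arrays, and under RSL the differences were 3.23 for Aldh1a1, 1.65 for Aldh1a7 and 2.48 for Stra6.

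Several secreted proteins were among the other leading genes. Thbs1, which encodes the matricellular glycoprotein thrombospondin-1, read 10.10, 10.08 and 9.85 in inducible and 7.28, 7.35 and 7.46 in parental cells, a difference of 2.65 ± 0.07 (SE, n = 3 per line; limma adjusted p = 9.6e-14). Tnc, which encodes tenascin-C, read 9.70, 9.69 and 9.49 against 7.99, 8.03 and 8.10, a difference of 1.59. Ptx3, a long pentraxin of innate immunity, read 9.14, 9.01 and 8.91 against 7.09, 7.23 and 7.12, a difference of 1.88. These 3 secreted proteins were each separated between the lines by more than the spread of the arrays. The peptide hormone gene Cck read 9.49, 9.64 and 9.68 against 7.20, 7.41 and 7.42, a difference of 2.26. Smaller differences were found for the glycoprotein hormone gene Stc1 (1.65), the fetal plasma protein gene Afp (1.49), Igfbp4 (1.41), which encodes an insulin-like growth factor binding protein, the matricellular gene Ccn1 (1.40) and the vasodilator peptide gene Adm (1.31). The adhesion receptor gene Vcam1 differed by 1.34, and by 1.60 under RSL (limma adjusted p of the change 0.0108).

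Cryab, a small heat shock protein and chaperone, read 9.84, 9.79 and 9.79 in inducible and 7.84, 8.06 and 8.0 in parental cells, a difference of 1.84. For 6 of the 2-fold higher genes the parental level was near the floor, so that the difference there depends on background as well as transcript. These were Cox7b2, a testis isoform of a cytochrome c oxidase subunit, Dpep1, a membrane dipeptidase, Brinp3, Dppa2, a factor of early embryonic cells, the protease inhibitor gene Serpina1a, and Ms4a4d. Cox7b2 read 8.06, 7.97 and 8.01 against 5.79, 5.67 and 5.74, a difference of 2.28 (limma adjusted p = 1.85e-16). Dpep1 read 8.11, 8.09 and 8.05 against 6.19, 6.18 and 6.14, a difference of 1.91. In each of these genes the inducible arrays agreed closely with one another, and all of them were again higher under RSL. Pnma5, an X-linked gene of the paraneoplastic antigen family, read 8.51, 8.43 and 8.36 against 6.29, 6.25 and 6.20, a difference of 2.19. Its parental levels, and those of Afp (6.10, 6.27 and 6.30), lay close to the first quartile too, so that background enters these differences as well.

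**Figure D2:**
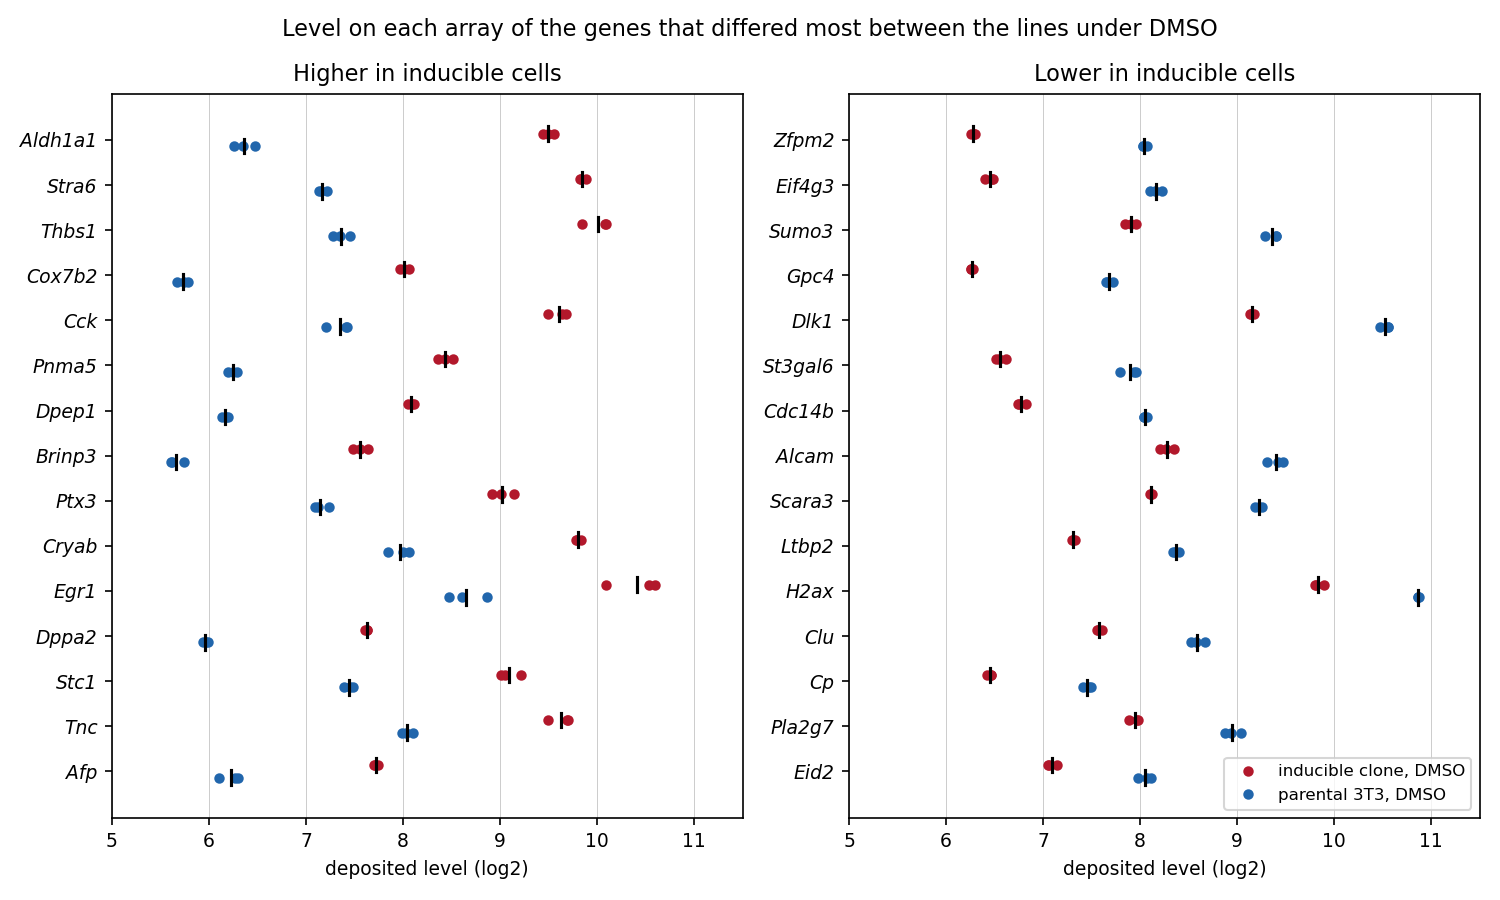
Level (log2) of leading genes on each of the 6 DMSO arrays, with a point for each array and a bar at the mean of the 3 arrays of a line. The inducible and parental arrays do not overlap for any gene shown, and the widest gap is that of Aldh1a1 with 9.50, 9.56 and 9.44 against 6.26, 6.47 and 6.35.

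The genes most lowered in the clone include a transcriptional cofactor, components of translation and protein modification, and cell surface and secreted proteins. Zfpm2, a cofactor of GATA transcription factors, read 6.30, 6.29 and 6.26 in inducible and 8.03, 8.07 and 8.03 in parental cells, a difference of -1.76 ± 0.03 (SE, n = 3 per line; limma adjusted p = 8.44e-16). Its inducible levels lay at about the first quartile of the arrays, so that this difference depends on background as well as transcript. Eif4g3, a scaffold protein of translation initiation, read 6.40, 6.48 and 6.48 against 8.10, 8.16 and 8.23, a difference of -1.71. Sumo3, a ubiquitin-like modifier, read 7.96, 7.91 and 7.84 against 9.29, 9.40 and 9.40, a difference of -1.46. The arrays of the lines were fully separated for each, and the differences under RSL were -1.75, -1.79 and -1.39.

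Dlk1, an imprinted transmembrane relative of the Notch ligands that restrains fat cell formation, read 9.18, 9.13 and 9.14 in inducible and 10.55, 10.55 and 10.47 in parental cells, a difference of -1.37 (limma adjusted p = 6.97e-14). The glypican gene Gpc4, a cell surface heparan sulfate proteoglycan, read 6.25, 6.28 and 6.26 against 7.72, 7.66 and 7.65, a difference of -1.41. Dlk1 thus stayed well above the floor in the clone, whereas Gpc4 lay at about the first quartile of the arrays. H2ax, the histone variant phosphorylated at DNA breaks, read 9.80, 9.82 and 9.89 against 10.86, 10.88 and 10.87, a difference of -1.03. Other genes lower by at least 2-fold were the sialyltransferase gene St3gal6 (-1.34), the phosphatase gene Cdc14b (-1.28), the adhesion molecule gene Alcam (-1.12), Scara3 (-1.11), the latent TGF-beta binding protein gene Ltbp2 (-1.05), the secreted chaperone gene Clu (-1.01), the copper carrier gene Cp (-1.01) and Pla2g7 (-1.01), whose enzyme inactivates platelet-activating factor. All 14 genes of this class were again called lower under RSL.

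Promoter windows from RefSeq (build GRCm38.p6, 250 bases before to 50 after a gene's start) were searched on both strands for 6 motifs, namely the TATA box (TATAAA), the AP-1 element (TGANTCA), the cAMP response element (TGACGTCA), the CArG box of serum response factor, the core of the interferon-stimulated response element, and the E-box (CACGTG). The inner letters of a CArG box can include a TATAAA, and the cAMP response element and the E-box share inner letters. A match is a description of letters, not of a bound factor. Some genes have several windows, and a gene was counted where any of its windows held the motif. A TATAAA was found in 10 of 29 genes at least 2-fold higher with a promoter window (34.5%), in 1 of 10 at least 2-fold lower and in 11.4% of all 12585 measured genes. TGANTCA was found in 4 of the 29 (13.8%) against 7.56% of all, and CACGTG in 1 of the 29 (3.45%) against 10.5%. A TATAAA on the gene's own strand beginning 20 to 40 bases before the start was present in 4 of the 29, namely Ccn1, Dio2, Fetub and Igfbp4, and in 2.91% of all genes. Of 28 serum response and immediate-early genes, 3 held a CArG box, against 1.62% of all genes. These were Egr2, Srf and Dusp5, whose line differences of 0.30, -0.19 and -0.02 did not share a direction. With the first listed window alone, a CArG box was in 2 of the 28 and in 1.39% of all genes. TATAAA was then in 10 of the 29 higher genes, 0 of the 10 lower ones and 9.73% of all. For a gene with several windows, the first that holds the motif is printed. The windows are given 5′ to 3′ on the gene's strand with the motif in capitals, for the gene most raised in the clone (Aldh1a1, chr19:20492333-20492632, plus strand, TGANTCA 57 bases before the start), for a pair of raised secreted proteins with a TATAAA at the usual distance (Ccn1, chr3:145649936-145650235, minus strand, 25 bases before the start; Igfbp4, chr11:99040994-99041293, plus strand, 28 bases before the start), and for an immediate-early gene with a CArG box (Egr2, chr10:67537316-67537615, plus strand, 72 bases before the start).
Aldh1a1: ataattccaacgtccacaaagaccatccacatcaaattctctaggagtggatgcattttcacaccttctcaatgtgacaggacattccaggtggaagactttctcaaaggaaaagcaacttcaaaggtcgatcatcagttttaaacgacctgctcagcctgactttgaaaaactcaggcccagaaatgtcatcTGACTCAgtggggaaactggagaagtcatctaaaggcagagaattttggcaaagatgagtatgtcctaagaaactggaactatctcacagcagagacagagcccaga
Ccn1: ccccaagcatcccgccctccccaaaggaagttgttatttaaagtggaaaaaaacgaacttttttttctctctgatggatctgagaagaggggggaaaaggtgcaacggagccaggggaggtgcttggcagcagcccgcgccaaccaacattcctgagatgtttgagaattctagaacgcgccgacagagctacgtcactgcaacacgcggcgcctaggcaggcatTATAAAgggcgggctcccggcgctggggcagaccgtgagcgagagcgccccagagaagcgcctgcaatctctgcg
Igfbp4: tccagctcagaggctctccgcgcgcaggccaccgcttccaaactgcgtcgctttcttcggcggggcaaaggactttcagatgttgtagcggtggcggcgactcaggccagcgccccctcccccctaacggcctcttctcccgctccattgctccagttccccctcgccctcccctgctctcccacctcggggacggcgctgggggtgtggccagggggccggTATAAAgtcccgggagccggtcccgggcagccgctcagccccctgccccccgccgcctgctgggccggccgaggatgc
Egr2: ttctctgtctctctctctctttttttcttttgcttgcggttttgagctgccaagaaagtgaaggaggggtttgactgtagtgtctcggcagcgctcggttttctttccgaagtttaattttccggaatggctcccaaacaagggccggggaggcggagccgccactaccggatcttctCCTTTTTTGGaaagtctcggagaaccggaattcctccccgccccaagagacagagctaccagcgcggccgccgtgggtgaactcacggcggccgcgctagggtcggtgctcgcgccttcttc

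The 48 pathway and family lists were read against the whole table, in which 15.2% of probe sets were higher and 14.5% lower with a median difference of -0.01. Of the 9885 probe sets in the brightest 60%, 22.8% were higher and 21.7% lower, so that lists of abundant transcripts start from larger shares. List counts under RSL are read against 17.5% higher and 16.8% lower of all probe sets.

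Immediate-early and serum response genes were mostly higher in inducible cells under DMSO where they differed. Of 36 measured, 20 (55.6%) were higher and 2 (5.56%) lower, with a median of 0.18. Among its transcription factors 15 of 26 were higher and 2 lower, and among the phosphatases and Sprouty proteins that restrain ERK signaling 5 of 10 were higher and 0 lower. Egr1 read 10.59, 10.53 and 10.09 in inducible and 8.87, 8.60 and 8.47 in parental cells, a difference of 1.76 ± 0.14 (SE, n = 3 per line; limma adjusted p = 9.68e-08). Its arrays were the most scattered of the leading genes but did not overlap. Ier3 (0.81), the Krüppel-like factors Klf2 (0.69) and Klf4 (0.68), the orphan nuclear receptor gene Nr4a1 (0.62), the ERK phosphatase gene Dusp1 (0.60), Fos (0.45) and the feedback inhibitor gene Spry1 (0.43) were higher, and Klf5 (-0.35) and Srf (-0.19), which encodes serum response factor, were lower. Jun (-0.02), Myc (-0.09) and Atf3 (-0.07) did not pass. Under RSL the same list had 11 higher and 10 lower genes and a median of -0.02, and all 11 of these were also higher under DMSO. For 9 of the 36 genes the line difference itself depended on the ligand, against 0.662% of all probe sets. Of these, Dusp1 was more positive under RSL and the other 8, Egr1, Ier2, Egr2, Fosl1, Dusp5, Klf10, Jun and Ier5, were more negative.

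Genes of the unfolded protein response, which raises the folding capacity of the endoplasmic reticulum, and of the integrated stress response were mostly higher where they differed. Of 33, 17 (51.5%) were higher and 4 (12.1%) lower, against 15.2% and 14.5% of all probe sets. The median was 0.11, and under RSL 16 (48.5%) were higher and 5 (15.2%) lower. The phosphatase regulator gene Ppp1r15a read 9.10, 9.03 and 8.90 in inducible and 8.48, 8.48 and 8.41 in parental cells, a difference of 0.55. The chaperone genes Dnajb11 (0.40) and Sdf2l1 (0.37), the pseudokinase gene Trib3 (0.39) and the transcription factor gene Xbp1 (0.24) were higher as well. Atf4, the transcription factor of the integrated stress response, was lower (-0.15), as was Phgdh (-0.19), the first enzyme of serine synthesis. Of 20 metallothionein and heat shock genes, 7 (35%) were higher, led by Cryab, and 2 (10%) were lower, among them the chaperone gene Hspa4 (-0.33). The 2 lower became 1 without any 1 inducible DMSO array, and under RSL 11 (55%) were higher and 3 (15%) lower.

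Glutathione, NRF2 and detoxification genes had 26 higher (46.4%) and 7 lower (12.5%) members of 56, with a median of 0.10. Under RSL 24 (42.9%) were higher and 8 (14.3%) lower. Gsto2, an omega class glutathione transferase, read 9.79, 9.75 and 9.72 against 8.55, 8.65 and 8.62, a difference of 1.15 (limma adjusted p = 6.74e-12). Mgst1, the microsomal transferase, read 9.70, 9.76 and 9.66 against 8.85, 9.01 and 9.02, a difference of 0.75. Neither gene had overlapping arrays. Gsta4 (0.64), the carbonyl reductase gene Cbr3 (0.53) and the sulfiredoxin gene Srxn1 (0.37) were higher, whereas Gstm1 was lower (-0.54). Glutathione transferases have close paralogs, and whether their probes are shared was not tested. The aldehyde dehydrogenase and retinoid list was divided. Of 34 genes, 9 (26.5%) were higher and 8 (23.5%) lower, against 15.2% and 14.5% of all probe sets. Aldh1a1, Stra6 and Aldh1a7 thus stood beside lower values of the retinoic acid carrier gene Crabp1 (-0.43) and the retinol dehydrogenase gene Rdh10 (-0.29). Aldh1l2 (-0.39), which acts in mitochondrial folate metabolism, was lower too.

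Lipid genes that differed were mostly higher, where 15.2% of all probe sets were higher and 14.5% lower. Of 37 genes of fatty acid synthesis and fat storage, 14 (37.8%) were higher and 2 (5.41%) lower, and under RSL 17 (45.9%) and 0. The larger share of these was in synthesis. Of its 18 genes, 11 were higher and 1 lower with a median of 0.15, and under RSL 12 were higher and 0 lower. Of 19 genes of fat cells and fat storage 3 (15.8%) were higher and 1 (5.26%) lower, with a median of 0.02. Fasn, fatty acid synthase, read 11.33, 11.36 and 11.30 in inducible and 10.85, 10.80 and 10.89 in parental cells, a difference of 0.49. Acsl4 (0.47) and Acss2 (0.33), which activate fatty acids and acetate, and the malic enzyme gene Me1 (0.31) were also higher. Of 17 cholesterol genes 6 (35.3%) were higher, led by the reductase gene Dhcr7 (0.45), and 3 (17.6%) lower. Under RSL 12 (70.6%) were higher and 2 (11.8%) lower. Among 16 genes of prostaglandin and lipid mediator synthesis, 4 (25%) were higher and 2 (12.5%) lower. Ptgs2, the inducible cyclooxygenase (0.86), and Alox5ap, the 5-lipoxygenase activating protein (0.84), led the higher ones. The lower ones were the prostaglandin E synthase genes Ptges (-0.28) and Ptges2 (-0.21). The glycolysis and hypoxia list had 7 higher (24.1%) and 8 lower (27.6%) genes of 29, with Adm at one end and the phosphofructokinase gene Pfkl (-0.53) at the other.

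**Figure D3:**
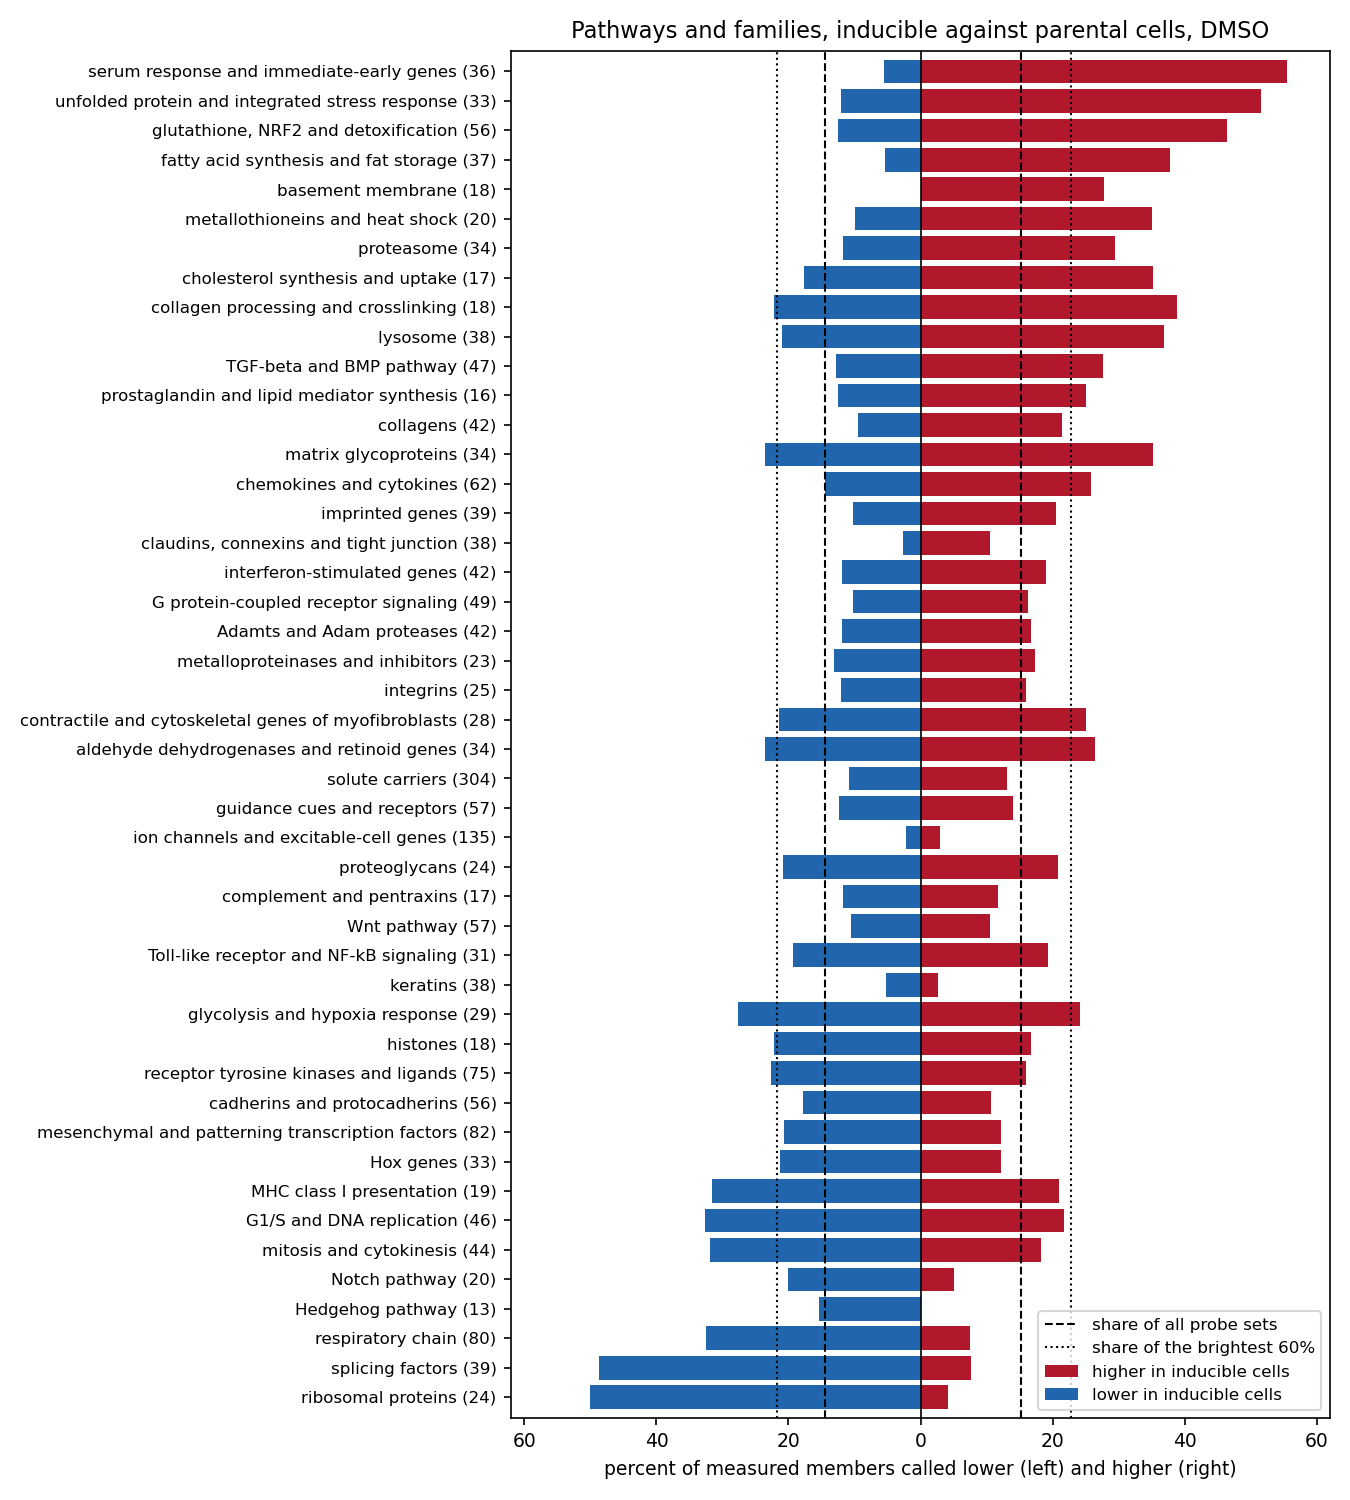
Share of the measured members of each pathway or family list that were higher (right) or lower (left) in inducible cells under DMSO at an adjusted p under 0.05, in percent, for lists of at least 13 measured genes (number in brackets), with dashed lines at the shares over all probe sets and dotted lines at those over the brightest 60%. The immediate-early list reaches 55.6% higher and the ribosomal protein list 50% lower, against 15.2% and 14.5% of all probe sets.

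Matrix genes differed in both directions. Their shares are read against 15.2% higher and 14.5% lower of all probe sets, and 22.8% and 21.7% of the brightest 60%. The fibrillar collagen genes Col5a2 (0.76), Col1a1 (0.73), Col5a1 (0.43) and Col3a1 (0.31) were higher, and the microfibrillar collagen genes Col6a1 (-0.39) and Col6a2 (-0.35) were lower. They belong to 9 higher (21.4%) and 4 lower (9.52%) of 42 collagen genes. Col1a1 read 11.29, 11.18 and 11 in inducible and 10.47, 10.45 and 10.38 in parental cells. Col1a2, which encodes the partner chain of Col1a1 in type I collagen, was lower by a small amount (-0.15). Of 18 basement membrane genes 5 (27.8%) were higher and 0 lower under DMSO, with a median of -0.01. Without parental DMSO replicate 1, 1 was lower. Under RSL 5 (27.8%) were higher and 4 (22.2%) lower, against 17.5% and 16.8% of all probe sets. The 5 were the nidogen genes Nid1 (0.42) and Nid2 (0.36) and the laminin genes Lama4 (0.25), Lamb2 (0.24) and Lamc1 (0.17). Among 34 matrix glycoprotein genes, 25 of them in the brightest 60%, 12 (35.3%) were higher and 8 (23.5%) lower. The higher ones included Thbs1, Tnc, Ccn1, Tnxb (0.46), Ccn4 (0.45) and Thbs2 (0.44). The lower ones included Ltbp2, Tgfbi (-0.77), Ltbp1 (-0.70), Ecm1 (-0.70) and Matn2 (-0.50).

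Proteases and adhesion receptors followed no single direction. Their shares are read against 15.2% higher and 14.5% lower of all probe sets. The stromelysin gene Mmp3 read 10.15, 10.27 and 10.23 against 9.0, 9.16 and 9.12, a difference of 1.12, and led 4 higher and 3 lower of 23 metalloproteinase and inhibitor genes, against 5 and 6 under RSL. The 3 lower became as few as 1 without inducible DMSO replicate 1 or 3 or parental DMSO replicate 2 or 3. The inhibitor genes Timp1 (0.31) and Reck (0.33) were also higher. The aggrecanase gene Adamts5 was higher by 0.65. Among 25 integrin genes 4 (16%) were higher, among them Itgb7 (0.48), and 3 (12%) were lower, Itga8 (-0.78), Itga6 (-0.70) and Itgb2 (-0.38). Among 56 cadherin and protocadherin genes 6 (10.7%) were higher, led by Pcdh19 (0.59), and 10 (17.9%) were lower, led by Pcdhb7 (-0.47), whose clustered paralogs may share probes. With the dimmest 40% of probe sets left out, 11 of the 56 remained, of which 3 were higher and 3 lower. The main fit also called 3 of these 11 higher and 3 lower.

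Growth factor and developmental genes divided in a like manner. Of 75 receptor tyrosine kinase and ligand genes, 12 (16%) were higher and 17 (22.7%) lower, against 15.2% and 14.5% of all probe sets. Hgf, hepatocyte growth factor, read 8.27, 8.32 and 8.28 in inducible and 7.43, 7.48 and 7.46 in parental cells, a difference of 0.83. The ligand genes Ereg (0.67) and Fgf7 (0.52) and the EGF receptor inhibitor gene Errfi1 (0.62) were higher as well. The platelet-derived growth factor receptor gene Pdgfrb read 7.31, 7.35 and 7.33 against 7.88, 8.07 and 8.04, a difference of -0.67, and the ligand gene Pdgfc (-0.62) and the receptor gene Axl (-0.43) were lower too. Pdgfra, the other receptor of that family in fibroblasts, was higher (0.38). In the TGF-beta and BMP list 13 of 47 (27.7%) were higher, led by Fstl1 (1.03), Id4 (0.79) and the activin antagonist gene Fst (0.49). In the same list 6 (12.8%) were lower, among them Tgfb3 (-0.39). The Notch list held 1 higher (5%) and 4 lower (20%) genes of 20, among the latter Dlk1 and its relative Dlk2 (-0.34). The Hedgehog list held 0 higher and 2 lower of 13, the latter 15.4% and near the share of all probe sets. The 2 were the coreceptor gene Gas1 (-0.54) and the transcription factor gene Gli2 (-0.28).

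Positional identity genes differed mostly by small amounts. Of 33 Hox genes 4 (12.1%) were higher, led by Hoxb6 (0.41), and 7 (21.2%) lower, led by Hoxa7 (-0.34), against 15.2% and 14.5% of all probe sets. When single arrays were left out, the count of higher Hox genes was 2 to 3, lowest without inducible DMSO replicate 3, and that of lower ones 3 to 8, moving most without inducible DMSO replicate 1 or 2 or parental DMSO replicate 1. Under RSL 4 were higher and 5 lower. Of 82 mesenchymal and patterning transcription factor genes 10 (12.2%) were higher, among them Irx3 (0.64) and the epithelial-mesenchymal transition factors Snai2 (0.62) and Twist2 (0.61). Another 17 (20.7%) were lower, among them Prrx2 (-0.74), Irx1 (-0.66), Foxc2 (-0.62) and Meis2 (-0.51). The Wnt list was even, with 6 higher and 6 lower of 57 (10.5% each), Apcdd1 (0.61) and Wnt5a (-0.36) among them.

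Chemokine and cytokine genes had 16 higher (25.8%) and 9 lower (14.5%) members of 62, against 15.2% and 14.5% of all probe sets. The monocyte attractant gene Ccl7 read 9.71, 9.64 and 9.85 in inducible and 8.69, 8.68 and 8.61 in parental cells, a difference of 1.07. The neutrophil attractant gene Cxcl1 read 8.92, 8.92 and 8.88 against 7.90, 7.97 and 7.89, a difference of 0.99. Il6 read 6.81, 6.73 and 6.65 against 5.84, 5.94 and 5.79, a difference of 0.87 with the parental arrays near the floor. Cxcl5 (0.98) and Ccl8 (0.55) were higher too, and the decoy receptor gene Tnfrsf11b (-0.81) was lower. The interferon-stimulated list had 8 higher, led by Oasl1 (0.51), and 5 lower genes of 42, against 14 and 5 under RSL. The MHC class I list had 4 higher (21.1%) and 6 lower (31.6%) of 19 under DMSO and 4 and 2 under RSL. The 4 higher became 2 without parental DMSO replicate 1. Among the 6 lower were the shared light chain gene B2m (-0.38) and the proteasome activator genes Psme1 (-0.32) and Psme2 (-0.33).

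Lower members prevailed in the lists of ribosomal proteins, splicing factors and the respiratory chain. Of 24 ribosomal protein genes 12 (50%) were lower and 1 was higher, with a median of -0.10, and under RSL 11 were lower and 0 higher. The 1 higher gene lost its call without inducible or parental DMSO replicate 1. Rpl15 read 9.68, 9.73 and 9.70 in inducible and 10.17, 10.26 and 10.24 in parental cells, a difference of -0.52, and Rpl31 (-0.45), Rpl7l1 (-0.38) and Rps3 (-0.31) were lower as well. Of 39 splicing factor genes 19 (48.7%) were lower and 3 higher (1 without inducible DMSO replicate 1), median -0.10, the lower ones including Hnrnpa0 (-0.49), Hnrnph3 (-0.49) and Srsf10 (-0.39). Of 80 respiratory chain genes 26 (32.5%) were lower and 6 higher, median -0.06, the lower ones including Ndufa8 (-0.39) and Sdha (-0.35), while Cox7b2 stood at the other end. Nearly all members of these lists belong to the brightest probe sets, of which 21.7% were lower. Replication and mitosis genes were divided, with 10 higher (21.7%) and 15 lower (32.6%) of 46 in the former. The latter had 8 higher (18.2%) and 14 lower (31.8%) of 44. Pola1 (-0.44), the replicative helicase subunit gene Mcm7 (-0.36) and the kinetochore gene Ndc80 (-0.28) were lower, and the mitotic kinase gene Aurka (0.36) and cyclin E gene Ccne1 (0.26) were higher. Of 38 lysosomal genes 14 (36.8%) were higher and 8 (21.1%) lower, and of 34 proteasome genes 10 (29.4%) were higher and 4 (11.8%) lower.

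Direction also followed chromosomal position. Genes were placed by RefSeq (build GRCm38.p6), and the brightest 60% of probe sets were used, since dim genes rarely passed. On chromosome 16, 53.7% of 294 genes were higher and 4.76% lower in inducible cells, with a median of 0.13. Chromosome 10 was the converse, with 53.1% of 469 genes lower, 6.82% higher and a median of -0.12. Lower genes also prevailed on chromosomes 17 (48.7%, median -0.11), 14 (46.8%, -0.10), 13 (43.8%, -0.09) and 3 (40.3%, -0.08), and higher genes on chromosomes 4 (38.3%, 0.07), 11 (37.2%, 0.06) and 9 (32.5%, 0.05). Of 20 chromosomes, 4 had a median above 0.05 and 5 a median below -0.05, and all 9 had the same sign on the RSL arrays. The RSL medians were 0.14 for chromosome 16 and -0.11 for chromosome 10. These chromosomes were picked by their DMSO values, so that the RSL arrays alone repeat the measurement. On the RSL arrays the medians of the 3 inducible and 3 parental arrays did not overlap on any of the 9. Chromosomes 6 (31.6% higher, 10.4% lower) and 5 (27.2%, 10.5%) had more higher genes, with medians just under 0.05, and their RSL arrays did not overlap either. Shares on chromosomes 1, 7, 8, 12 and 19 were nearly even, with 16.6% to 24.1% higher and 18.0% to 20.4% lower, although on chromosome 19 too the inducible arrays lay below the parental arrays under both treatments. DNA copy number was not measured here, and its part in these differences was not tested.

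**Figure D4:**
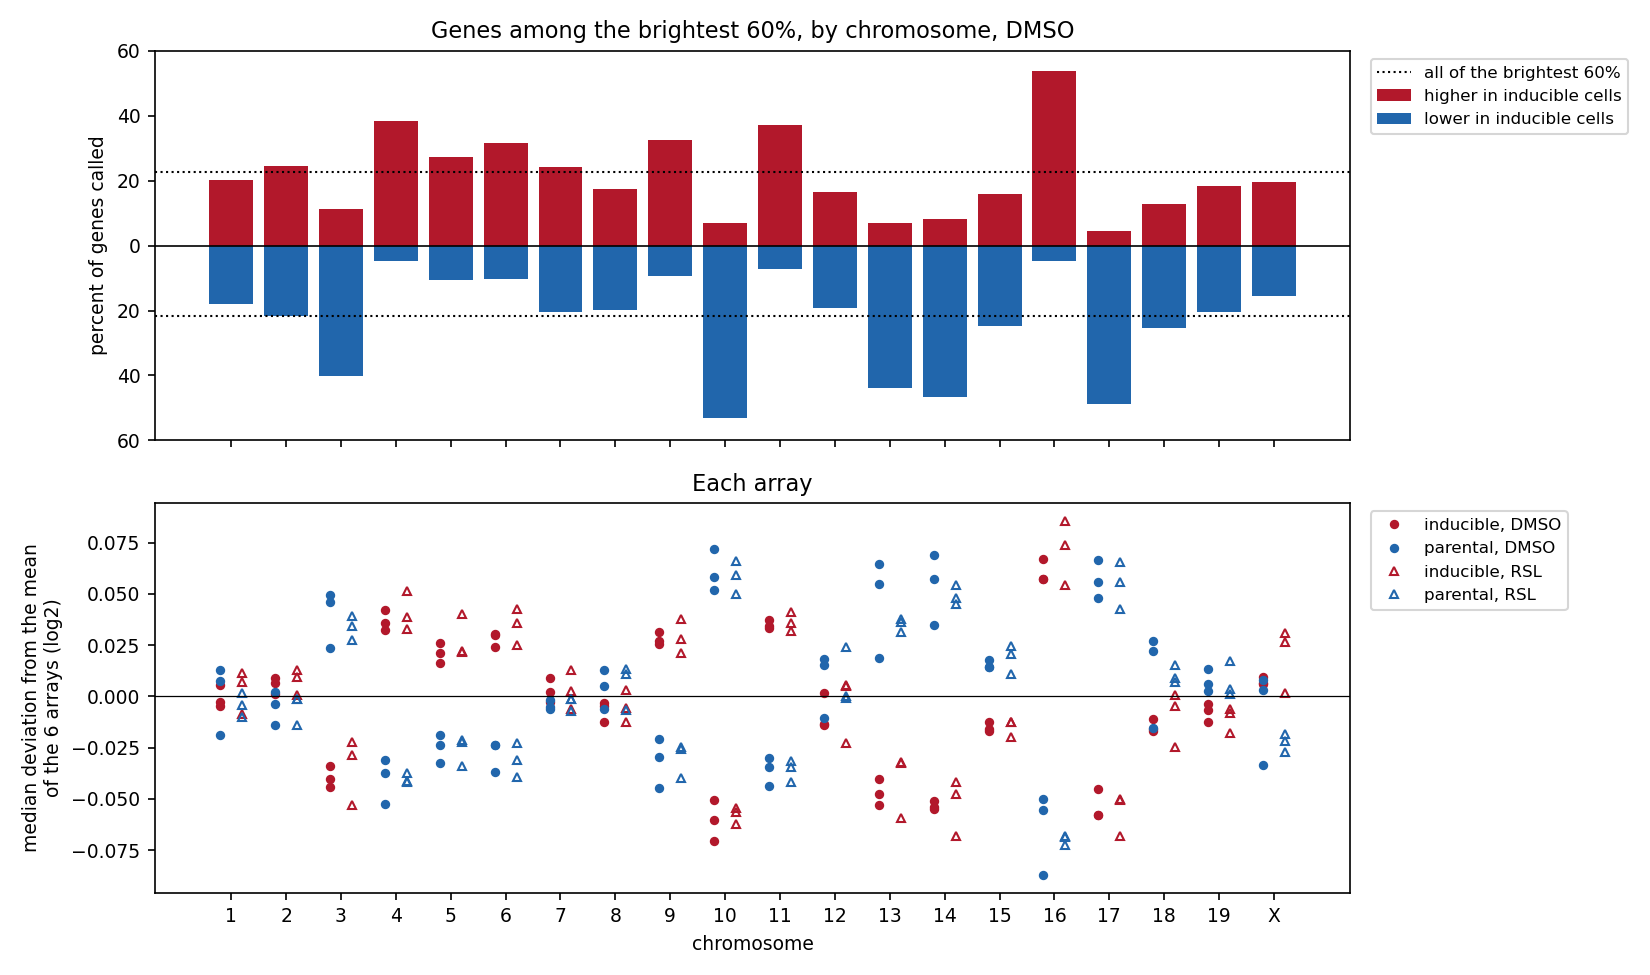
Share of genes higher and lower in inducible cells (percent, adjusted p under 0.05 under DMSO) for each chromosome, over the brightest 60% of probe sets (upper panel, dotted lines at the shares over all of these), and for each array the median deviation of the chromosome's genes from the mean of the 6 arrays of its treatment (lower panel, log2, circles for DMSO and triangles for RSL). Chromosome 16 has 53.7% higher and 4.76% lower, chromosome 10 has 6.82% higher and 53.1% lower, and the arrays of the lines separate on both.

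Blocks within chromosomes were seen as well. Over windows of 20 neighbouring genes, 136 of 9136 overlapping windows held at least 15 lower genes and 78 at least 15 higher genes, and the median of each had the same sign under RSL. Over all placed genes, dim ones included, 35 of 15366 windows held at least 15 lower and 2 at least 15 higher genes. Stretches were joined from windows of the brighter genes with at least 12 of 20 called in 1 direction under DMSO, so that their DMSO counts are a description and their end genes were chosen after the values were seen. The proximal stretch of chromosome 2 from Tsc1 to Tnfaip6 had 83 lower and 4 higher of 110 genes, with a median of -0.21, and under RSL 78 lower, 4 higher and -0.21. The distal stretch of the same chromosome from Pigt to Polr3k went the other way, with 65 higher and 2 lower of 95 genes, a median of 0.16, and 58 higher, 3 lower and 0.18 under RSL. Chromosome 2 as a whole was therefore even, with 24.5% higher and 21.7% lower. From Ppp1r11 to Dpy30 on chromosome 17, 93 of 142 genes were lower and 3 higher (median -0.17), and from Pex3 to Man1a on chromosome 10, 55 of 87 were lower and 6 higher (median -0.16). From Slc49a4 to Dcbld2 on chromosome 16, 32 of 49 were higher and 2 lower (median 0.18).

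**Figure D5:**
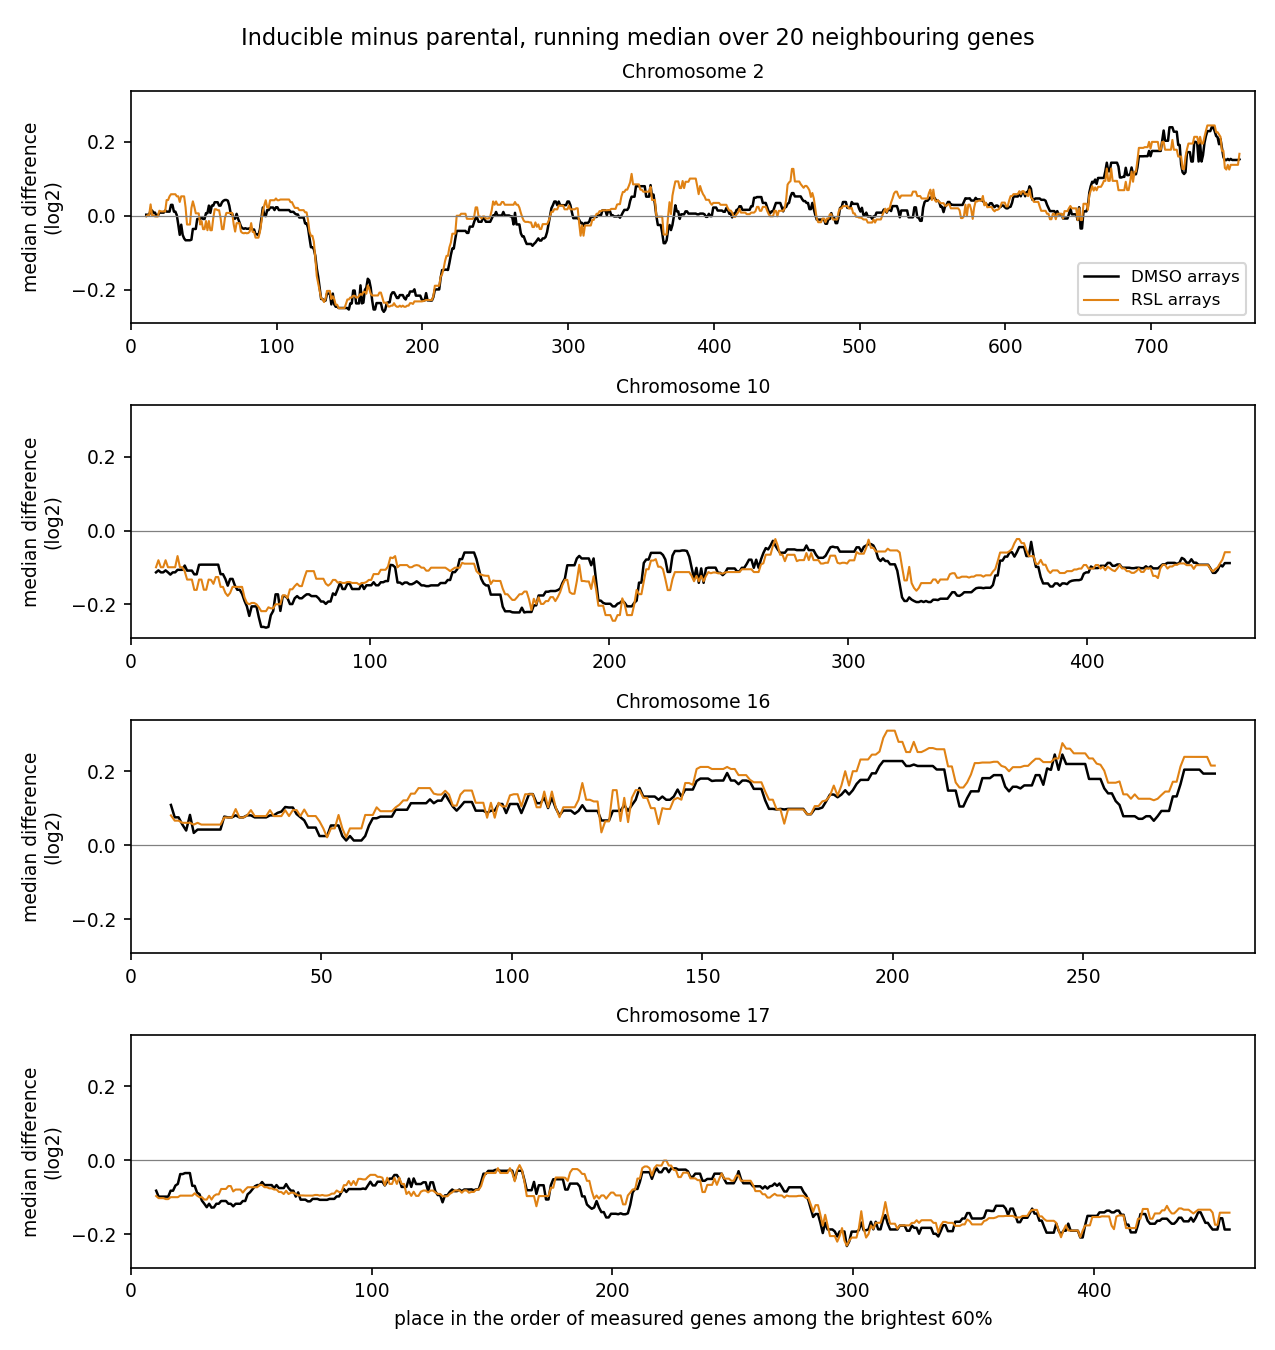
Median difference (inducible minus parental, log2) over 20 neighbouring genes along chromosomes 2, 10, 16 and 17, under DMSO (black) and under RSL (orange), against the order of measured genes. The lines for DMSO and RSL run together, and chromosome 2 passes from a block at a median of -0.21 to a distal block at 0.16.

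Some large single-gene differences went against their neighbourhood. Alcam (-1.12) and St3gal6 (-1.34) lie among genes whose 20 neighbours had medians of 0.22 and 0.18, and Stc1, higher by 1.65, lies among genes with a median of -0.15. The smaller shifts of the gene lists were recomputed after subtracting from each gene the median of 20 neighbours. The list median then went from 0.18 to 0.16 for immediate-early genes, from 0.11 to 0.13 for the unfolded protein response, from 0.10 to 0.09 for glutathione genes, from -0.10 to -0.11 for ribosomal proteins and from -0.10 to -0.06 for splicing factors. Some list medians changed sign. Among these were the lysosomal list (0.04 to -0.02), collagens (0.01 to -0.02), collagen processing (0.04 to -0.01) and guidance cues (0.01 to -0.02). The median of the basement membrane list went from -0.01 to 0.12.

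The difference between the lines depended on the ligand for 109 probe sets (0.662%) in the limma interaction contrast over all 12 arrays, 59 (0.358%) more positive under RSL and 50 (0.303%) more negative. The count of 109 ranged from 56 to 144 when single arrays were left out. Egr1 had the largest such dependence among the named genes. Its RSL levels were 8.98, 9.12 and 9.57 in inducible and 9.25, 9.45 and 9.60 in parental cells, so that the lines overlapped under RSL and the line difference changed by -1.97. Ccn1 read 10.44, 10.52 and 10.61 against 9.99, 9.76 and 9.70 under RSL, and Mmp3 read 9.92, 9.97 and 9.97 against 9.41, 9.36 and 9.40. Both remained higher in inducible cells, with line differences that changed by -0.69 and -0.56 against DMSO. Aldh1a7 and Ptx3 went the other way. Aldh1a7 read 9.20, 9.21 and 9.22 against 7.55, 7.45 and 7.68 under RSL, and its line difference was larger by 0.65. Ptx3 read 9.75, 9.78 and 9.51 against 7.20, 7.23 and 7.29, and its line difference was larger by 0.57.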

How the data were processed

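Levels came from Affymetrix mouse expression arrays, with 3 arrays for each line and treatment. The deposited table holds log2 expression values that the authors had made with a custom CDF (version 10), RMA, as the submitters' processing notes name it, and quantile normalization. The methods give Entrez-based gene definitions for the CDF and RMA for the background correction. That the logarithm is to base 2 was inferred from their range, and the method of summarising probes is not stated in the methods or labels. For RNA extraction the labels name Trizol and the methods name peqGOLD RNAPure. All 12 columns belonged to samples of the series, with 0 columns of other samples, and 64 control probe sets were left out. Precision is limited by the number of arrays.

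All 12 arrays entered 1 limma fit (version 3.58.1, R 4.3.3) with a mean for each of the 4 groups, with 8 residual degrees of freedom before moderation. Empirical Bayes tests were adjusted by the Benjamini-Hochberg method over all 16475 probe sets, and a probe set was called at an adjusted p under 0.05. The methods' own one-way analysis was run as an alternative. The fit was tested on simulated data in which it recovered 76% of 50 probe sets changed by 0.2, 92% at 0.3 and 100% at 0.5 and at 1, with 6 false among 190 calls. The simulated noise was normal and independent between arrays and probe sets, and far fewer probe sets were changed than were called here. These shares therefore check the fit and are not error rates of the comparison.

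Gene symbols came from the platform annotation, updated through RefSeq (GRCm38.p6). Of the probe sets, 15780 carry 1 symbol, 695 are unnamed and 15752 could be placed on a chromosome. The named genes were Ier2, the 15 largest differences in each direction and up to 8 called members of each list with the largest differences, which gave 375 genes. Of these, 351 kept their call without any 1 of the 6 arrays. Genes outside this rule, chosen after their values were seen, were the end genes of chromosomal stretches, Vcam1, Ms4a4d, Serpina1a, Dio2, Fetub, Lum, Ptges2, the cell type markers, and the list members Jun, Myc, Atf3, Egr2, Fosl1, Dusp5, Klf5, Klf10, Ier5, Spry1, Srf, Atf4, Phgdh, Rdh10, Ccn4, Thbs2 and Tnxb. The comparison and the lists were chosen with earlier results of these data known. Some lists are given only in counts, and 1 list is not reported here. Alternatives chosen after seeing the data were the subtraction of neighbouring genes, the use of all placed genes and those of the interaction.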

Additional observations from a re-analysis of the deposited data

Results flagged for a closer look

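The difference between inducible and parental 3T3 cells was not the same with and without ligand for 30 of the named genes, by the limma interaction contrast at an adjusted p under 0.05. Values are the line difference under RSL minus that under DMSO on the log2 scale. The call was kept without any 1 of the 12 arrays for 17 of the 30.

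Of these 17, 7 were more negative under RSL. They were the immediate-early genes Egr1 (-1.97) and Ier2 (-0.64), the matricellular gene Ccn1 (-0.69), the stromelysin gene Mmp3 (-0.56), the EGF receptor inhibitor gene Errfi1 (-0.44), the keratin gene Krt76 (-0.42) and the prostaglandin E synthase gene Ptges (-0.33). The remaining 10 were more positive. They were Aldh1a7 (0.65), the pentraxin gene Ptx3 (0.57), the small leucine-rich proteoglycan genes Aspn (0.45) and Omd (0.44), the protease genes Adamts1 (0.42) and Adamts5 (0.33), Id4 (0.40), the metallothionein gene Mt1 (0.36), Tapbp (0.33), which acts in peptide loading of MHC class I, and the interferon-inducible GTPase gene Irgm1 (0.29). Aspn was near the floor in both lines under DMSO.

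For the other 13 genes the call was lost when single arrays were left out. The values were -0.29 for Sema7a, -0.28 for Kcnn4, -0.26 for Ndrg1 and -0.25 for Axl among the genes more negative under RSL. They were 0.37 for Sesn1, 0.36 for Dhcr7, 0.34 for Ddit4, 0.33 for each of Dusp1, Il6 and Ccl8, 0.28 for Hsph1, 0.24 for Tgfb3 and 0.23 for Gstm1 among those more positive. Whether these differences follow from the ligand, the induced protein or single cultures was not tested.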

How the results depend on the processing

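The DMSO comparison called 4885 probe sets and between 4132 and 4660 when any 1 array was left out (2149 to 2353 higher, 1980 to 2393 lower). It called 4604 with a replicate block, 4740 with the 6 DMSO arrays alone, 6476 with array weights and, by the methods' one-way analysis, 5514 at the nominal p the methods name and 3410 after Benjamini-Hochberg adjustment. Same-numbered arrays of the lines did not deviate together (correlations of -0.30, -0.15 and -0.01), so the numbers do not pair them. No named gene reversed under the alternatives run, and 8 to 20 lost their call without a given array, 9 with the block and 42 in the one-way analysis after adjustment. The adjusted one-way analysis called 3480 under RSL (1814 higher, 1666 lower) against 5638, and leaving out single arrays gave 4707 to 5652 (2421 to 2831, 2286 to 2821). A test against a difference of 0.5 gave 79 higher and 41 lower under DMSO and 81 and 49 under RSL. Counts of at least 2-fold ranged from 36 to 39 higher and 11 to 14 lower under DMSO, and from 37 to 41 and 11 to 12 under RSL.

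The 109 probe sets with a ligand-dependent difference became 375 with array weights (195 more positive, 180 more negative) and 76 with the replicate block (31 more negative), and 56 to 144 without single arrays (34 to 88 more positive, 20 to 56 more negative). The count was 56 without inducible DMSO replicate 1 or 2, 60 and 70 without parental DMSO replicate 2 or 3, 72 and 58 without inducible RSL replicate 1 or 2, and 71 without parental RSL replicate 1. Over all placed genes, 0 chromosomes had a median above 0.05 and 2 a median below -0.05. Leaving out single arrays gave 3 to 6 and 5. Counts and medians of gene lists moved in 586 of the recomputed values and stayed in 4338. The 10 lower cadherin genes became 3 without the dimmest 40%, a setting that leaves only 11 of the 56 list members to be called. In the main fit 3 of these 11 were lower too, so that this change reflects members left out. The causes of these changes were not tested, and dim probe sets limit what differences near the floor can show.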

Other observations

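Several gene families had few called members, or members called in both directions, between the lines under DMSO. Of all probe sets, 15.2% were higher and 14.5% lower. Of 135 ion channel and excitable-cell genes, 4 were higher and 3 lower, among the latter Kcnab1 (-0.71), a potassium channel subunit, and under RSL 3 and 13. Of 38 keratin genes 1 was higher and 2 lower, the latter 1 to 3 without single arrays (inducible DMSO replicates 1 and 2, parental DMSO replicates 2 and 3), and under RSL 1 was higher and 8 lower. Solute carriers, with 304 measured genes, were close to even at 40 higher (13.2%) and 33 lower (10.9%), both near the shares of all probe sets. They ranged from Slc41a2 (0.80) to Slc22a23 (-0.65) and Slc43a1 (-0.65). The 39 imprinted genes held 8 higher (20.5%), among them Peg3 (0.34), and 4 lower (10.3%), of which Dlk1 had the largest difference. Of 49 genes of G protein-coupled receptor signaling 8 (16.3%) were higher, led by the regulator gene Rgs2 (0.90), and 5 (10.2%) lower. The latter were 9 without parental DMSO replicate 2. Among 18 histone genes H2bc4 (0.86) and H2ax (-1.03) lay at opposite ends, and H2bc4 belongs to a family of near-identical genes whose probes may be shared.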
